A study of Homo sapiens with 15 samples.

Results

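CD47 and ELAVL1 are the 2 genes described here, a cell-surface protein and the RNA-binding protein known to bind its long 3' UTR. Both were taken by gene symbol from a table of 13056 genes, with 1 transcript per gene, and both had a value in all 15 libraries. They were chosen with the measured values of these same libraries already known, so their own values are given as a description and without a p-value. The value is the distal poly(A) site usage (PDUI), a fraction between 0 and 1 that gives the share of a gene's transcripts ending at the distal rather than the proximal poly(A) site. A PDUI near 1 stands for mostly long 3' UTRs and a PDUI near 0 for mostly short ones.

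All 15 libraries came from HEK293T, a human embryonic kidney line that carries the SV40 large T antigen, and every group carried a short hairpin RNA. The 6 knockdown groups were shHDAC1 (a histone deacetylase), shPABPN1 (the nuclear poly(A)-binding protein), shPCBP2 (a poly(C)-binding protein), shSF3B4 and shU2AF2 (splicing factors that act at the branch point and the polypyrimidine tract) and shZNF384 (a zinc-finger transcription factor), with 2 libraries each. The comparison group was shControl, labelled WT, with 3 libraries. The hairpin sequences, the time of knockdown and whether replicates came from separate cultures are not stated in the labels, so a spread between replicates may be technical.

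The protocol names both a nuclear and a total RNA isolation, and the library names of shControl carry the suffix "nuc", which no knockdown library name carries. Whether RNA fraction differed between the groups cannot be read from the labels, and a difference of that kind cannot be told apart from a knockdown in any comparison with shControl. The mean PDUI of a library over its genes ran between 0.522 and 0.585 and was lowest in shControl replicate 1. The values have a step of 0.01, 1.37% to 4.49% of genes were missing per library, and the read depth behind a value is unknown. PDUI is not an amount of RNA, so neither the strength of a knockdown nor the markers of HEK293T can be checked from it.

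Most human genes can be cleaved and polyadenylated at more than one site in the last exon, and the choice sets how much 3' UTR, with its protein and microRNA binding sites, the mRNA keeps. CD47 is an integrin-associated membrane protein that signals through SIRPA on macrophages and restrains phagocytosis. In textbook accounts, its long 3' UTR recruits ELAVL1, which brings SET to the site of translation, and with active RAC1 this raises the amount of CD47 on the plasma membrane, whereas the short 3' UTR does not. ELAVL1, also called HuR, is a mostly nuclear protein that shuttles to the cytoplasm, binds U-rich and AU-rich stretches of 3' UTRs and usually stabilises those mRNAs, and its own transcript is known to be alternatively polyadenylated.

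The poly(A) signals found in the 50 bases before annotated ends of both 3' UTRs are printed, since short and long forms end at different sites. For ELAVL1 only the last end had such a signal. Whether the measured forms used these ends is not known. In each line the 30 bases run 5' to 3' on the transcribed minus strand, from GENCODE release 29 on GRCh38, with the hexamer in capitals.
CD47 near signal (chr3:108047081-108047110): tgtaatttagttAATAAAataattatgatc
CD47 far signal (chr3:108043300-108043329): ttatatatacttAATAAAacattttaagct
CD47 last signal (chr3:108043097-108043126): agcagagttttaATTAAAagttttaaatca
ELAVL1 last signal (chr19:7958580-7958609): tgatattttggtAATAAAtgaagtgggatc

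The near CD47 signal began 186 bases after the stop codon, 18 bases before an annotated transcript end at 203. The far signal began at 3967 and the last at 4170, before annotated ends at 3986 and 4190. The table does not give the position of its proximal site, so which annotated end the short form used is not known. CD47's last exon (chr3:108043094-108047292, minus strand, 4199 bases) shared no base with another annotated gene, and its 3' UTR of 4190 bases was longer than 88.4% of 9358 annotated 3' UTRs, whose median was 1300 bases. ELAVL1's last exon (chr19:7958579-7963807, minus strand, 5229 bases) held a 3' UTR of 4904 bases, longer than 91.6%, with annotated ends 324, 2566 and 4904 bases after the stop codon. No AATAAA or ATTAAA lay in the 50 bases before the ends at 324 and 2566. The ELAVL1 exon shared 406 and 122 bases with AC010336.6, an antisense transcript on the plus strand, and since the use of strand is not stated, reads from the 2 genes cannot be told apart there. In all 12704 transcripts matched to the annotation, 60.7% held AATAAA and 17.9% held ATTAAA in the last 50 bases.

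Only forms that end beyond the near site carry the rest of the 3' UTR, and the windows with the most ATTTA, a pentamer of AU-rich elements, or with the most T are shown because ELAVL1 is known to bind such sequence. Capitals mark ATTTA in the first pair of lines and the T run in the last.
CD47 AU-rich window (chr3:108043215-108043244): aaATTTAATTTAttaatgtatttttaagtt
ELAVL1 AU-rich window (chr19:7961840-7961869): tttATTTAtacctATTTAtgtATTTATTTA
CD47 T-rich window (chr3:108044418-108044447): TTTTTTTTTTTTTTTTTTTTTTTTTTTTTT

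The CD47 windows began 4040 and 2837 bases after the stop codon and the ELAVL1 window began at 1614, so all of them lie beyond the nearest annotated end of their gene. The CD47 AU-rich window also lies beyond the annotated end at 3986, so only the form ending at 4190 holds it. The CD47 copies of ATTTA at 2770 and 2776 bases fit in a window with as many copies, which lies before the end at 3986. The window shown was taken because it holds more T. Over its whole 3' UTR, CD47 held 19 ATTTA, overlapping copies included, or 4.53 per kb, a density above that of 90.9% of 5448 3' UTRs of at least 1000 bases, whose median was 2.07 per kb. ELAVL1 held 13 ATTTA, or 2.65 per kb, above 63.0% of them. CD47 held 5 runs of 7 or more T and ELAVL1 held 3, both counted on the transcribed strand only. CD47 held 5 AATAAA and 5 ATTAAA, the first at 186 and 511 bases and the rest between 2963 and 4170. ELAVL1 held 5 AATAAA, all between 4257 and 4886 bases, and 3 ATTAAA, at 233, 1184 and 4674. These counts describe letters and do not show that a site is bound or used.

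**Figure D1:**
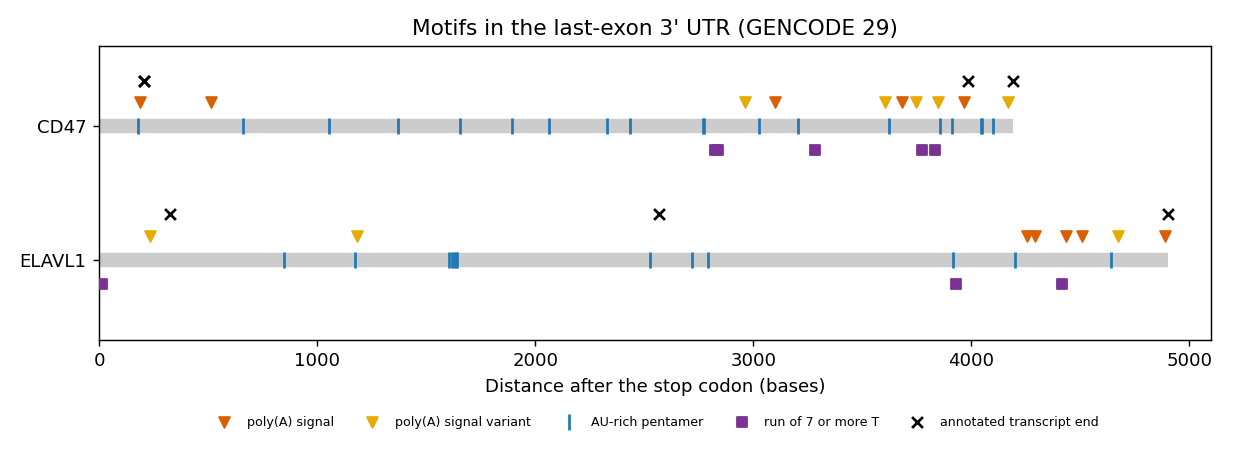
Map of the 3' UTRs of CD47 and ELAVL1, in bases after the stop codon, with poly(A) signals, ATTTA pentamers, runs of T and annotated transcript ends marked. In CD47 a signal at 186 stands just before the end at 203, and a stretch without AATAAA or ATTAAA runs between 511 and 2963; in ELAVL1 the AATAAA copies lie between 4257 and 4886.

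CD47, the membrane protein, had its highest PDUI when PABPN1 was knocked down: about double the shControl level, in both libraries. It was 0.58 and 0.52 in shPABPN1, against 0.31, 0.26 and 0.25 in shControl. Both shPABPN1 libraries stood above every other library of the series, the next highest being 0.39. The mean was 0.55 ± 0.04243 in shPABPN1 (SD, n = 2) and 0.2733 ± 0.03215 in shControl (SD, n = 3), a difference of 0.2767 (SE 0.0262 from the limma fit over all libraries) and a ratio of 2.01. In a bulk library, a change in every cell and a larger change in some of the cells cannot be told apart.

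The other knockdowns left CD47 mostly in its short form. PDUI was 0.37 and 0.39 in shZNF384, 0.39 and 0.33 in shPCBP2, and 0.35 and 0.34 in shU2AF2, all above the highest shControl library at 0.31. These groups had means of 0.38 ± 0.01414, 0.36 ± 0.04243 and 0.345 ± 0.007071 (SD, n = 2 each), with differences of 0.1067, 0.08667 and 0.07167 to shControl (SE 0.0262 each). The lowest shPCBP2 library lay only 0.02 above the highest shControl library. PDUI was 0.30 and 0.26 in the shSF3B4 libraries and 0.23 and 0.25 in shHDAC1, values that overlapped those of shControl. The shSF3B4 mean of 0.28 ± 0.02828 differed by 0.006667 from shControl, and the shHDAC1 mean of 0.24 ± 0.01414 by -0.03333 (SD, n = 2 each; SE 0.0262). The shHDAC1 difference was -0.015 without shControl replicate 1 and -0.05167 after centring each library on its median.

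ELAVL1, the binding protein, stayed at a low PDUI in every library, between 0.08 and 0.18, so its short 3' UTR forms made up most of the measured usage throughout. PDUI was 0.18 and 0.16 in shPABPN1, against 0.12, 0.12 and 0.11 in shControl. It was highest in shPABPN1, though its lower library there tied at 0.16 with 1 library each of shU2AF2 and shZNF384. The mean was 0.17 ± 0.01414 in shPABPN1 (SD, n = 2) and 0.1167 ± 0.005774 in shControl (SD, n = 3), a difference of 0.05333 (SE 0.00992) and a ratio of 1.46.

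In shHDAC1 ELAVL1 had 0.09 and 0.08, below all the other 13 libraries. Its mean there was 0.085 ± 0.007071 (SD, n = 2), a difference of -0.03167 to shControl (SE 0.00992) and a ratio of 0.729. PDUI was 0.16 and 0.14 in shU2AF2 and again 0.16 and 0.14 in shZNF384, with a mean of 0.15 ± 0.01414 and a difference of 0.03333 in both. It was 0.13 and 0.15 in the shSF3B4 libraries, a difference of 0.02333, and these 3 groups did not overlap shControl. It was 0.12 and 0.13 in shPCBP2, a difference of 0.008333, and these values overlapped those of shControl. Steps of 0.01 are a large part of differences this small.

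**Figure D2:**
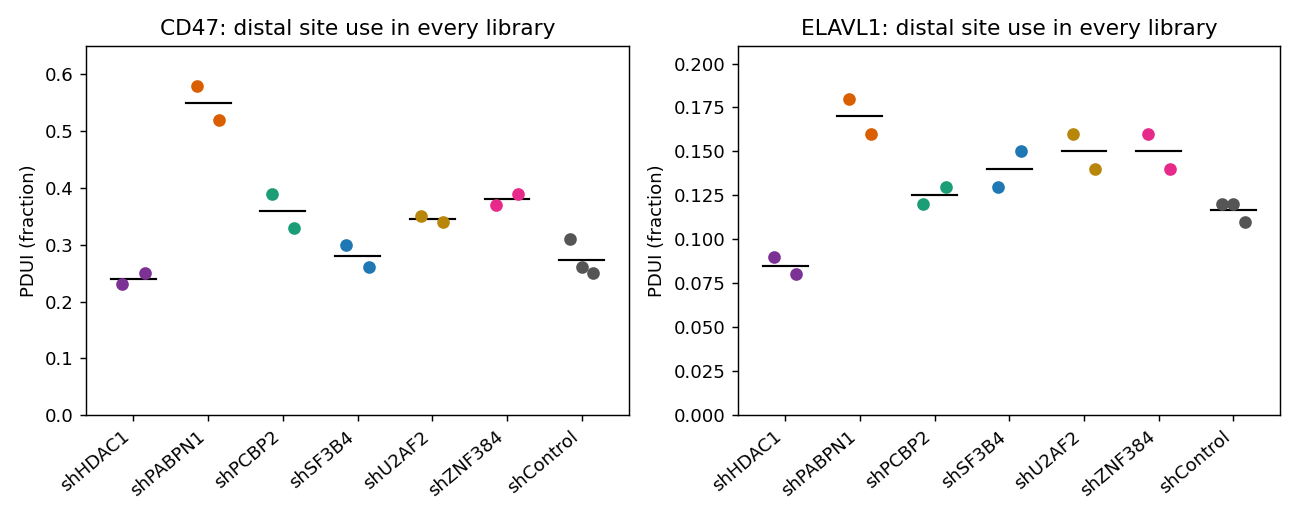
PDUI of CD47 and of ELAVL1 in each of the 15 libraries, by group, with points for libraries and lines for group means. The 2 shPABPN1 libraries of CD47, at 0.58 and 0.52, stand above all others, and the 2 shHDAC1 libraries of ELAVL1, at 0.09 and 0.08, below all others.

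These counts need the background of all genes, and nothing is read from them about the pair, since both were chosen on these contrasts. CD47 did not overlap shControl in 4 of the 6 comparisons and ELAVL1 in 5 of 6. Of all genes tested, the libraries did not overlap shControl in 15.3% for shHDAC1, 26% for shPABPN1, 21.6% for shPCBP2, 25.4% for shSF3B4, 29% for shU2AF2 and 24.5% for shZNF384. Both shPABPN1 libraries stood above all the other 13 for 259 of 11353 genes with a value in every library, or 2.28%, CD47 among them. Both shHDAC1 libraries stood below all the other 13 for 207 of 11353 genes, or 1.82%, ELAVL1 among them. In the limma fit, both genes were called at an adjusted p under 0.05 in shPABPN1 and in no other comparison. The share of genes called was 0.0243% in shHDAC1, 4.72% in shPABPN1, 1.17% in shPCBP2, 5.42% in shSF3B4, 7.27% in shU2AF2 and 1.5% in shZNF384. The call of CD47 was lost when the fit held only the 2 groups compared. That of ELAVL1 was lost there, after centring each library on its median, without shControl replicate 3 and without shPABPN1 replicate 1.

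Against the rest of the table, the CD47 difference in shPABPN1 was larger than that of 98.7% of 12278 genes tested, whose median difference was -0.00933. Among the 971 genes with a shControl mean between 0.223 and 0.323, close to that of CD47, the median difference was 0 and 15 genes had a larger one. The CD47 differences in shZNF384, shPCBP2 and shU2AF2 were larger than 85%, 82.8% and 77.3% of genes, where the medians of all genes were 0.0233, 0.015 and 0.0117. The ELAVL1 difference in shPABPN1 was larger than 81.6% of genes, and 231 of 1018 genes with a shControl mean between 0.0667 and 0.167 had a larger one. In shHDAC1, 20.4% of genes had a lower difference than ELAVL1, while 938 of 1039 genes of like level had a higher one. Ranked within its own library, CD47 averaged the 51.2 percentile of all genes in shPABPN1 and the 23.5 percentile in shControl. ELAVL1 averaged the 14.2 percentile in shPABPN1 and the 10.7 percentile in shControl.

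**Figure D3:**
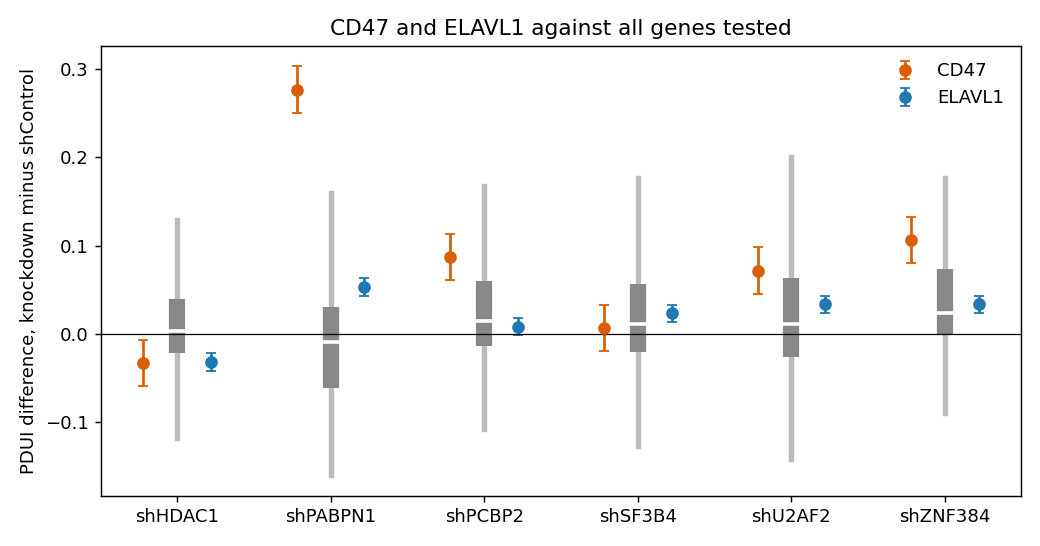
Difference in PDUI of CD47 and ELAVL1, each knockdown minus shControl, with the limma standard error as bars. Grey boxes span the quartiles of all genes tested, thin grey bars their range between percentiles 5 and 95, and white lines their median. CD47 reaches 0.2767 in shPABPN1 and lies at -0.03333 in shHDAC1, and ELAVL1 spans -0.03167 in shHDAC1 to 0.05333 in shPABPN1.

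The groups fall in a similar order for both genes. For CD47 the order of means, low to high, was shHDAC1, shControl, shSF3B4, shU2AF2, shPCBP2, shZNF384 and shPABPN1. Neighbours were separated without overlap at 2 places, between shU2AF2 and shSF3B4 (means 0.065 apart) and between shPABPN1 and shZNF384 (0.17 apart). The other neighbours overlapped. For ELAVL1 the order was shHDAC1, shControl, shPCBP2, shSF3B4, shU2AF2 level with shZNF384, and shPABPN1. There only shHDAC1 and shControl did not overlap, 0.0317 apart.

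As a description over the 7 group means, Pearson's r between the 2 genes was 0.803 and Spearman's rho 0.865. Both genes were chosen with their values in these groups known, so nothing is read from this relation about the pair. Both values of a point come from the same libraries, so a shift of a whole library enters both genes, and its part in this relation was not tested. Without shPABPN1, r was 0.75 over 6 groups, and without shPABPN1 and shHDAC1 it was 0.51 over 5.

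**Figure D4:**
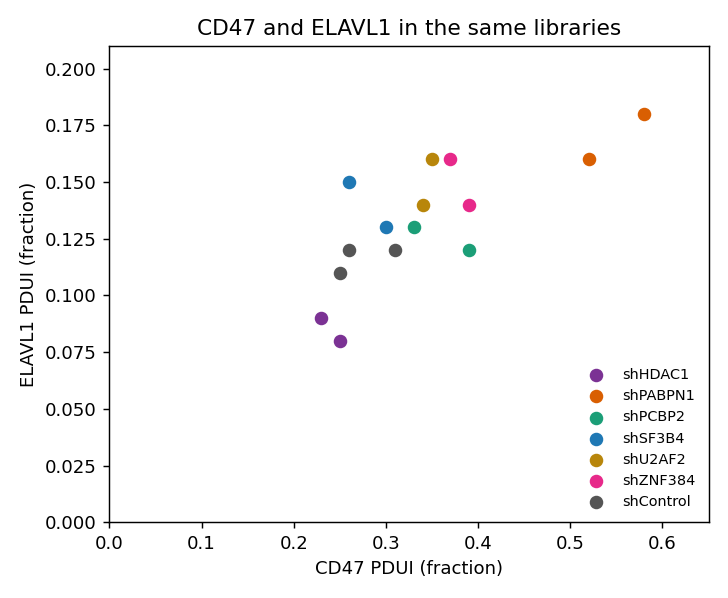
ELAVL1 PDUI against CD47 PDUI, both as fractions, with a point for each library, coloured by group. The shPABPN1 libraries lie at the upper right, with CD47 at 0.58 and 0.52, and the shHDAC1 libraries at the lower left, with ELAVL1 at 0.09 and 0.08.

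The genes whose pattern over the 7 groups was most like that of CD47 were found by the mean absolute difference between group means after centring each gene on its own mean, among 11352 other genes. POLR3D, a subunit of RNA polymerase III, came first at 0.0156, with a mean PDUI of 0.59 in shPABPN1 and 0.317 in shControl. TNRC6B, a scaffold of microRNA silencing, followed at 0.0171, with 0.66 in shPABPN1 and 0.35 in shControl. The next were BCAS4 (0.0208), CLYBL, a mitochondrial lyase (0.0214), and SPRYD4 (0.0219), whose last exon overlaps GLS2 and MIP. Pearson's r with CD47 over the 7 means ran between 0.975 and 0.989 for these 5 genes.

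The same measure for ELAVL1 gave RAE1, an mRNA export factor, at 0.00673, with 0.15 in shPABPN1 and 0.113 in shControl. FAM241A (0.00748), TRAPPC9, a subunit of a vesicle-tethering complex (0.00789), C19orf47 (0.00816) and AP001273.1 (0.00857), which overlaps CEP295, came next, with r between 0.915 and 0.982. These distances are as small as the 0.01 step of the values. Genes picked as the nearest of so many have a high r by construction.

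**Figure D5:**
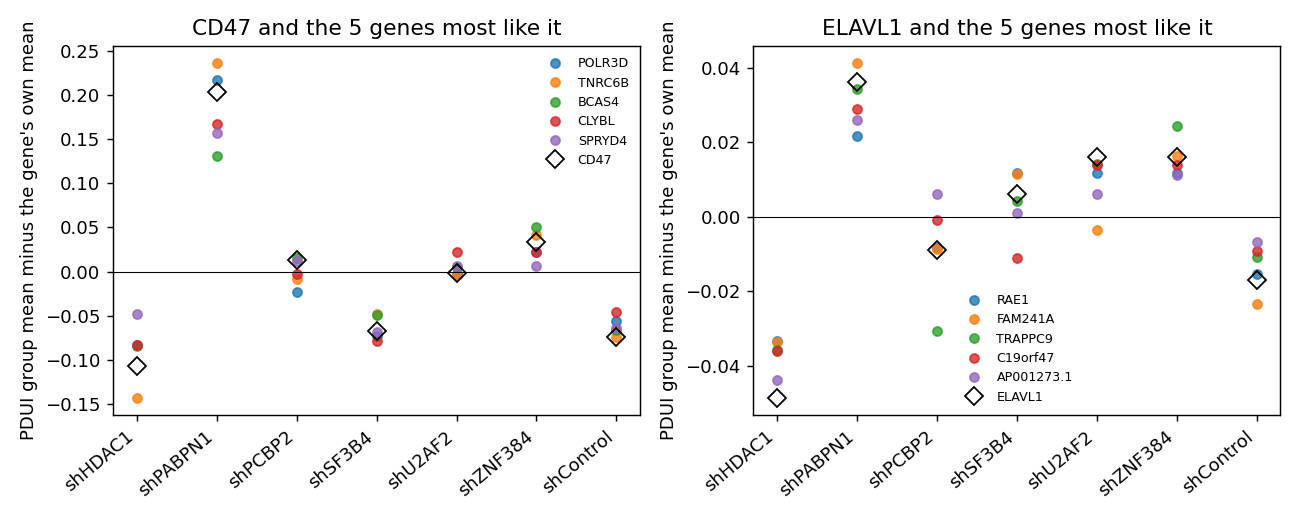
Group mean of PDUI minus the gene's own mean over the 7 groups, for CD47 and ELAVL1 (diamonds) and the 5 genes most like each (dots). CD47 and the 5 genes near it are all highest in shPABPN1, where POLR3D has an uncentred PDUI of 0.59, against 0.317 in shControl.

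The partners in the CD47 route were read from the same table, named for their role and not by a rule on their values. SET, the chaperone that ELAVL1 brings to the CD47 mRNA, had a PDUI of 0.54 and 0.54 in shPABPN1, against 0.63, 0.64 and 0.62 in shControl, so the groups did not overlap. Its difference of -0.09 did not pass the limma test over all genes (adjusted p = 0.158). SET stood above all shControl libraries in shSF3B4 (0.66 and 0.71) and in shU2AF2 (0.69 and 0.67), and was not called there. RAC1, the GTPase of the route, was at 1 in both shPABPN1 libraries, against 0.95, 0.9 and 0.91 in shControl, a difference of 0.08 that did not pass either (limma adjusted p = 0.122).

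RAC1 was also at 1 in both shU2AF2 libraries (difference 0.08, limma adjusted p = 0.0987). It was below all shControl libraries in shHDAC1 (0.87 and 0.85) and in shZNF384 (0.86 and 0.86), and was not called there. ZFP36L1, an AU-rich element binding protein, averaged 0.475 ± 0.03536 in shPABPN1 and 0.52 ± 0.04583 in shControl (SD, n = 2 and n = 3) and overlapped it (limma adjusted p = 0.575). SIRPA, the receptor for CD47, averaged 0.55 ± 0.1273 in shPABPN1 and 0.5533 ± 0.04726 in shControl and overlapped it. In shSF3B4 SIRPA had 0.66 and 0.66 and in shU2AF2 0.66 and 0.77, above all shControl libraries at 0.57, 0.59 and 0.5. Neither of these differences passed (limma adjusted p = 0.522 and 0.222). ELAVL2, a paralogue of ELAVL1, averaged 0.76 ± 0.2546 in shPABPN1 and 0.8467 ± 0.1041 in shControl, also overlapping. Its group means were above those of ELAVL1 in all 7 groups. ELAVL3 and ELAVL4 were not analysed here.

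In the wider list of CD47 partners, ligands and other surface proteins, 15 of 20 genes were in the table and 2 were called. An unadjusted limma p under 0.05 was reached by 5 of 13 genes tested in shPABPN1 and by 5 of 15 in shSF3B4, so genes not called may differ too. CD59, a surface inhibitor of complement, rose in shPABPN1, with 0.46 and 0.53 there against 0.31, 0.34 and 0.28 in shControl (difference 0.185, limma adjusted p = 0.00211). CD59 fell in shSF3B4, with 0.15 and 0.16 (difference -0.155, limma adjusted p = 0.00439). The shPABPN1 and shSF3B4 libraries stood on opposite sides of shControl for this gene, and both calls were lost in 1 of 18 alternatives, the fit of only 2 groups.

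UBQLN1, a ubiquilin known to bind the cytoplasmic tail of CD47, fell in shPABPN1, with 0.47 and 0.53 there against 0.7, 0.71 and 0.64 in shControl (difference -0.1833, limma adjusted p = 0.0294), a call lost without either shPABPN1 library and without shControl replicate 2. It also fell in shU2AF2, at 0.53 in both libraries (difference -0.1533, limma adjusted p = 0.0461), a call lost under 14 of 18 alternatives. In all, 4 of 85 tests of this list passed, 1 higher and 3 lower, or 4.71%, against 3.34% over all genes. Medians of the list in shPABPN1 and of all genes were -0.015 and -0.00933.

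The list of other proteins that bind AU-rich or U-rich 3' UTRs had 38 of 40 genes in the table and 13 of 228 tests passed, 8 higher and 5 lower, or 5.7%. Over all genes 2475 of 74181 tests passed, 2047 higher and 428 lower, or 3.34%. CELF2, a CUG-binding splicing regulator, rose in shU2AF2 to 0.435 ± 0.06364, against 0.2733 ± 0.03215 in shControl (difference 0.1617, limma adjusted p = 0.00422). It fell in shZNF384 to 0.145 ± 0.007071 (limma adjusted p = 0.0459), a call lost under 15 of 18 alternatives. HNRNPC, a binder of U tracts, fell in shZNF384 to 0.14 ± 0, against 0.1767 ± 0.005774 in shControl (limma adjusted p = 0.0189). The HNRNPC call was lost without shControl replicate 1 and without either shZNF384 library.

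HNRNPD, also called AUF1, rose in shSF3B4 to 0.08 ± 0, against 0.05333 ± 0.005774 in shControl (limma adjusted p = 0.00951), and in shU2AF2 to 0.075 ± 0.007071 (limma adjusted p = 0.0207). After centring the libraries on their medians both HNRNPD differences turned to -0.001667. HNRNPDL, its relative, rose in shSF3B4 to 0.42 ± 0.01414, against 0.2867 ± 0.05508 in shControl (limma adjusted p = 0.0195), and in shU2AF2 to 0.415 ± 0.02121 (limma adjusted p = 0.0178). All of these HNRNPD and HNRNPDL calls were lost without 1 or more single libraries of the groups compared. In shPABPN1 2 of the 38 passed, 1 higher and 1 lower, or 5.26% against 4.72% of all genes, and the list's median was -0.0233.

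The proteins that carry or modify ELAVL1 were all 20 in the table, and 5 of 120 tests passed, all higher, or 4.17%, against 3.34% over all genes, where calls were mostly higher too. ANP32A, an ELAVL1 ligand with a role in its export, rose in shSF3B4 to 0.6 ± 0.01414, against 0.45 ± 0.05292 in shControl (limma adjusted p = 0.0468), a call lost under 17 of 18 alternatives. The list's median in shPABPN1 was -0.0442, against -0.00933 for all genes.

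A further list held genes known for long and short 3' UTRs, as CD47 is, of which 35 of 36 were in the table. Here 18 of 207 tests passed, 17 higher and 1 lower, or 8.7%, against 3.34% over all genes. This list, like those above, was chosen with earlier results of these data known. Its share and the adjusted p-values of its genes are therefore a description, and nothing is read from the larger share. TMEM106B, a lysosomal membrane protein, rose in shPABPN1 to 0.12 ± 0.01414, in shU2AF2 to 0.15 ± 0.01414 and in shZNF384 to 0.13 ± 0.01414, against 0.04333 ± 0.005774 in shControl (limma adjusted p = 0.00239, 0.000216 and 0.00775). The shZNF384 call was lost without shZNF384 replicate 1.

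EGFR, a receptor tyrosine kinase, rose in shSF3B4 to 0.935 ± 0.07778, against 0.33 ± 0.05292 in shControl (limma adjusted p = 0.00107), and in shU2AF2 to 0.695 ± 0.07778 (limma adjusted p = 0.0117), the second lost without shU2AF2 replicate 1. In shPABPN1 it averaged 0.36 ± 0.1697 and was not called. In shPABPN1 4 of 34 list genes tested passed, all higher, with a list median of 0.0225 and -0.00933 over all genes. No gene of any of the 4 lists passed in shHDAC1 or shPCBP2 with limma, where an unadjusted p under 0.05 was reached by 1, 4, 1 and 5 genes for shHDAC1 and by 2, 5, 1 and 6 for shPCBP2, in the order of the lists above. After centring the libraries, the calls of CD59, of CELF2 in shU2AF2, of EGFR and of TMEM106B in shPABPN1 held, and the other calls named here for the lists were lost. Of the differences whose calls were lost, some grew in size after centring. These were UBQLN1 in shU2AF2, at -0.1767, and CELF2 and HNRNPC in shZNF384, at -0.1767 and -0.085. Others shrank, to -0.1617 for UBQLN1 in shPABPN1, 0.105 for HNRNPDL in shSF3B4 and in shU2AF2, and 0.1217 for ANP32A in shSF3B4. Some genes stand in more than 1 list, and the 6 comparisons share the 3 shControl libraries, so the counts are not independent.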

How the data were processed

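The authors' deposited table gave PDUI as a fraction per gene and library; hg38 is named per the submitters' processing notes. The aligner, the site caller and the annotation behind the values are not stated there or in the labels, and no read counts were used, so depth and its error per value are unknown. Each library enters as 1 value per gene. Replicate numbers of shSF3B4 differ between the sample titles and the library names, so those libraries have no replicate number here.

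A gene was tested when both knockdown libraries and at least 2 shControl libraries had a value. limma 3.58.1 (R 4.3.3) was fitted to the values as deposited, with 1 mean per group over all 15 libraries, a trend in the spread and 8 residual degrees of freedom, two-sided, with Benjamini-Hochberg adjustment over all genes within each comparison. A call is an adjusted p under 0.05. The procedure was tested on simulated data. The members and the gene lists were chosen with earlier results of these data known, so no p is given for the members. Named are the members, up to 4 called genes per list with the smallest p, and the 5 genes most like each member. Some genes that this rule names are not reported here. Of the table's transcripts, 12704 of 13056 (97.3%) were found in GENCODE 29; for both members only an older transcript version was found. Motifs were searched on the transcribed strand, overlaps included.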

Additional observations from a re-analysis of the deposited data

How the results depend on the processing

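The CD47 difference in shPABPN1 kept its direction under every alternative run, and the size was 0.229 against the mean of the other 5 knockdowns and 0.2467 to 0.3067 with 1 library left out. Against the other 5 knockdowns CD47 had -0.143 in shHDAC1, 0.001 in shPCBP2, 0.025 in shZNF384 and, with the sign turned, -0.095 in shSF3B4 and -0.017 in shU2AF2. For each of these groups the reference includes shPABPN1, where CD47 averaged 0.55. Centring the libraries on their medians gave CD47 0.05333 in shPCBP2, 0.05833 in shZNF384 and -0.02167 in shSF3B4, where the percentile rank also turned, to -1.926 percentage points. With 1 library left out CD47 ran between 0.05667 and 0.1167 in shPCBP2, lowest without shPCBP2 replicate 1, and between -0.01333 and 0.02667 in shSF3B4. ELAVL1 kept its direction in shPABPN1, at 0.075 when centred and 0.04 against the other knockdowns, and in shHDAC1, at -0.05 and -0.062. Centred values of ELAVL1 were 0.01 in shU2AF2 and, turned, -0.025 in shPCBP2, -0.005 in shSF3B4 and -0.015 in shZNF384; against the other knockdowns they were 0.004 in shSF3B4, 0.016 in shU2AF2 and in shZNF384, and -0.014 in shPCBP2, where the percentile rank gave -0.7292 percentage points. The cause of these turns was not tested.

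As deposited, the median difference of all genes was 0.00333 in shHDAC1, -0.00933 in shPABPN1, 0.015 in shPCBP2, 0.0117 in shSF3B4 and in shU2AF2, and 0.0233 in shZNF384. Centring turned its sign in every comparison rather than removing it. After centring, the median was -0.015 in shHDAC1, 0.0117 in shPABPN1, -0.0183 in shPCBP2, -0.0167 in shSF3B4, -0.0117 in shU2AF2 and -0.0233 in shZNF384. Calls higher and lower then were 338 and 24 in shPABPN1 (490 and 89 as deposited), 3 and 1 in shPCBP2 (130 and 15), 111 and 99 in shSF3B4 (520 and 141) and 259 and 132 in shU2AF2 (727 and 172). In total, centring gave 0 calls in shHDAC1, 362 in shPABPN1, 4 in shPCBP2, 210 in shSF3B4, 391 in shU2AF2 and 0 in shZNF384, with 647 and 1465 genes at an unadjusted limma p under 0.05 where none was called. Fitting only the groups compared gave 0 calls in shPABPN1 (1692 unadjusted), 2 in shPCBP2, 186 in shSF3B4, 327 in shU2AF2 and 5 in shZNF384. With 1 library left out the calls ran between 3 and 51 in shHDAC1, 343 (without shControl replicate 3) and 1048 (without shControl replicate 1) in shPABPN1, 46 and 158 in shPCBP2, 429 and 662 in shSF3B4, 573 and 855 in shU2AF2, and 22 and 213 in shZNF384; where this leaves a lone library, it is assumed to vary like the other groups.

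Calls in the lists were 2 when centred and 0 in the fit of only 2 groups for the CD47 partners (12 of 85 unadjusted), 3 and 0 for the AU-rich and U-rich binders (26 of 228 unadjusted), 1 and 1 for ELAVL1 export and regulation, and 6 and 3 for the classic 3' UTR genes. Leaving out 1 library gave 2 to 5, 5 to 12 and 2 to 6 calls in the first 3 lists. Deviations of libraries with the same replicate number were little correlated between groups (correlations between -0.0116 and 0.0468 over 15 pairs of groups). The labels do not state whether such libraries were prepared together, and a low correlation cannot exclude it, so the main fit pairs no samples. With the replicate block, which left out shSF3B4, CD47 was at 0.265 and ELAVL1 at 0.05 in shPABPN1, where ELAVL1 was no longer called, and calls over all genes were 6 in shHDAC1, 232 in shPABPN1, 7 in shPCBP2, 531 in shU2AF2 and 3 in shZNF384; list calls were 1, 1, 0 and 5, against 2, 7, 3 and 12 without the block over the same 5 comparisons.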

Other observations

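Some further genes of the lists passed the limma test, and they are named here after their values were seen. Among the AU-rich and U-rich binders, these included FMR1 and FXR1 in shPABPN1, TIAL1 and MSI2 in shSF3B4, and FXR1 in shU2AF2. After centring, the difference of FMR1 was -0.16 in shPABPN1 and that of MSI2 -0.185 in shSF3B4, and neither was still called. TIAL1 in shSF3B4 and FXR1 in shPABPN1 and in shU2AF2 lost their calls too, with centred differences of 0.003333, 0.05333 and 0.003333. Among the classic 3' UTR genes, these included CSNK1A1 in shPABPN1 and shU2AF2, RHEB in shSF3B4 and shU2AF2, and RUNX1 in shSF3B4. RUNX1, a transcription factor of blood cell formation, had a centred difference of 0.3317 in shSF3B4. It was still called then, but not in the fit of only 2 groups. CSNK1A1, a casein kinase, had centred differences of 0.09667 in shPABPN1 and -0.1183 in shU2AF2, and neither was still called. The RHEB calls were lost after centring as well, at 0.01167 in shSF3B4 and 0.03667 in shU2AF2.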
